A study of Bombus terrestris with 8 samples.

Results

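bantam and mir-8 are the microRNAs (miRNAs) best known in insects for the control of tissue growth and body size. Here they are the 2 entries that carry these names, bte-bantam and bte-mir-8, among the 65 mature miRNAs listed for larvae of the bumblebee *Bombus terrestris*, and both had reads in every library. Small RNA was sequenced from whole bodies of worker-destined, diploid female larvae, with 4 libraries of late larvae (the fourth instar) and 4 of early larvae (the first and second instars). The larvae came from 4 colonies, with a pair of libraries from each colony, and each library was a pool of larvae of the same colony and stage. The spread between libraries is thus that between pools, which can include differences between colonies, and not between single animals. No treatment or mutation was involved, and the stages differ in age alone as far as the sample descriptions say. Reads on listed miRNAs numbered 45649 to 257161 in late libraries and 204223 to 502540 in early libraries. Late replicate 4 had the fewest, and the full depth of the libraries was not used here.

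A miRNA is a short RNA that guides a silencing complex to messenger RNAs, mainly by pairing of its seed (bases 2 to 8) with a complementary stretch. In *Drosophila*, bantam promotes cell proliferation and blocks cell death. It is switched on by the Hippo pathway effector Yorkie and represses *hid*, a trigger of apoptosis. Also in *Drosophila*, mir-8 acts in the fat body, where it represses *u-shaped*, an inhibitor of insulin signaling, so that larvae without it grow into small flies. mir-8 belongs to the same family as the vertebrate miR-200 miRNAs. Whether these roles hold in bumblebees was not tested by these data.

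The mature sequences as listed by the authors are shown with the seed in capitals, because the seed decides which transcripts a miRNA can recognize.
bte-bantam: tGAGATCAttgtgaaagctgatt
bte-mir-8: tAATACTGtcaggtaaagatgtc
Both were 23 nt long, both began with T (U in the RNA), as did 41 of the 64 distinct mature sequences, and both had a GC content of 34.8%, against a median of 45.5% over the list. Their seeds were unrelated to each other. Neither seed was found in any of the other 64 entries, whether at bases 2 to 8, at bases 2 to 7 or anywhere in the mature sequence, so that no other listed miRNA shared it. The complements of the seeds, read 5′ to 3′, are TGATCTC for bte-bantam and CAGTATT for bte-mir-8.

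The precursor hairpins are shown with the mature sequence in capitals, because its place tells which arm was counted.
bte-bantam: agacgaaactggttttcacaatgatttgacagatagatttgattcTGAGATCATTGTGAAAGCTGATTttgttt
bte-mir-8: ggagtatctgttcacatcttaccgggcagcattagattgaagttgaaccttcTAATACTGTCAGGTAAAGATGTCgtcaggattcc
The bte-bantam precursor lies on scaffold Group14.1 of assembly Bter_1.0, from 690929 to 691002 on the plus strand, and the bte-mir-8 precursor on scaffold Group11.5, from 2450542 to 2450627 on the minus strand. No other listed miRNA lies on either scaffold, and the genes around the hairpins were not analysed here. In both, the mature sequence sits on the 3′ arm, at bases 46 to 68 of 74 in bte-bantam and at bases 53 to 75 of 86 in bte-mir-8. Folded with RNAfold, the bte-bantam precursor had a minimum free energy of -29.3 kcal/mol with 22 of its 23 mature bases paired, the whole seed included, and the bte-mir-8 precursor one of -31.5 kcal/mol with 19 of 23 mature bases and 6 of 7 seed bases paired. The median over all 65 precursors was -34 kcal/mol. The opposite arms, aactggttttcacaatgatttgaca in bte-bantam and acatcttaccgggcagcatta in bte-mir-8 by this fold, are not among the listed mature sequences, so no arm ratio could be formed. The authors predicted bte-bantam with miRCat, which searches mapped reads and their genomic context for hairpins. They list bte-mir-8 as conserved between *Bombus* and other species. For homologs of honeybee miRNAs that its prediction tools missed, the paper also required a clear hairpin and a minimum of reads in these libraries.

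Both miRNAs ranked among the most abundant in every library. bte-bantam was lower in late than in early larvae under every scaling tried, whereas bte-mir-8 was somewhat higher after normalization but took a similar share of the reads at both stages. Within a library, reads of bte-bantam and bte-mir-8 were near parity in early larvae, and bte-mir-8 reads prevailed in late larvae.

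bte-bantam had 7602, 4004, 3009 and 807 reads in late replicates 1 to 4 and 27703, 29360, 11857 and 12633 reads in early replicates 1 to 4. After scaling of the libraries by edgeR's TMM method, which gives counts as CPM on a common library size, these were 33754, 32661, 27543 and 15848 CPM in late replicates 1 to 4, against 47452, 51027, 51998 and 49495 CPM in early replicates 1 to 4. Every late library thus lay below every early one, with late replicate 4 lowest. The mean was 27451 ± 8196 CPM in late larvae and 49993 ± 1983 CPM in early larvae (SD, n = 4 each). Late larvae therefore had 0.549 times the normalized bte-bantam count of early larvae (log2 fold change -0.86, standard error 0.24, approximate 95% interval of the fold 0.388 to 0.778). In the quasi-likelihood test of edgeR, with Benjamini-Hochberg adjustment over the 62 sequences tested, the adjusted p was 0.0129. The test treats the libraries as independent, although each colony gave a pair of them. In 14 alternative fits the adjusted p ranged from 1.5e-05 to 0.0361, and bte-bantam passed 0.05 in all 14.

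bte-mir-8 had 15800, 8162, 6735 and 4057 reads in late replicates 1 to 4 and 30760, 30696, 10924 and 13921 reads in early replicates 1 to 4. Its normalized counts were 70155, 66578, 61649 and 79670 CPM in late replicates 1 to 4, against 52689, 53349, 47907 and 54541 CPM in early replicates 1 to 4. Here every late library lay above every early one, with late replicate 4 highest. The mean was 69513 ± 7617 CPM in late larvae and 52121 ± 2913 CPM in early larvae (SD, n = 4 each). The fold was 1.33 (log2 fold change 0.42, standard error 0.18, approximate 95% interval of the fold 1.02 to 1.75, not adjusted). With an adjusted p of 0.0927 in edgeR's test (unadjusted 0.0389), bte-mir-8 did not pass 0.05, nor did it in any of the 14 alternative fits, where the adjusted p ranged from 0.0583 to 0.924. These data thus do not settle whether bte-mir-8 differed between the stages.

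**Figure D1:**
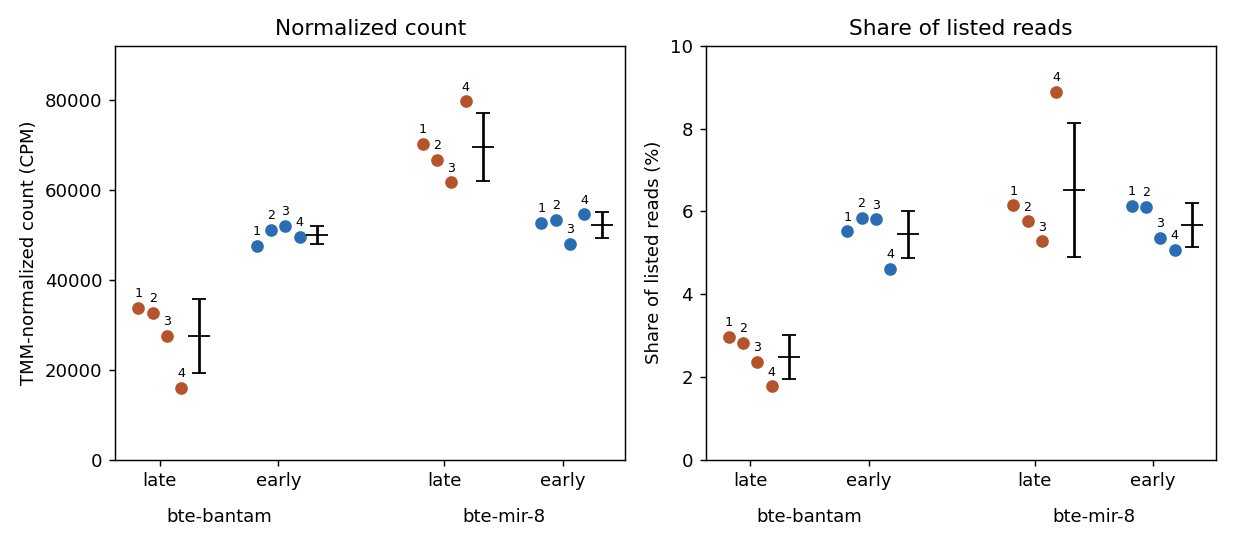
Normalized counts (left, CPM after TMM scaling) and shares of the listed reads (right, percent) of bte-bantam and bte-mir-8 in each library. Points are libraries with their replicate number, orange for late and blue for early larvae, and the black bar gives the mean and SD of 4 libraries. For bte-bantam the stages are apart in both panels, while for bte-mir-8 they are apart in normalized counts and overlap in shares.

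Of the 62 sequences, 20 (32.3%) passed 0.05 in this comparison, 8 of them lower in late larvae (12.9%) and 12 higher (19.4%), and 27 (43.5%) had an unadjusted p under 0.05 in edgeR. The stages did not overlap in normalized counts for 20 of the 62 (32.3%), 12 lower and 8 higher in late larvae, so separate stages are in themselves no mark of these miRNAs. The split of calls into higher and lower moved with the scaling, with 12 higher and 13 lower under DESeq2 and 11 higher and 14 lower when libraries were scaled by their listed total. Single libraries moved it further, to 9 higher and 20 lower without late replicate 1 and 5 higher and 11 lower without early replicate 2. In these bulk libraries of whole bodies, a lower count can come from fewer cells with the miRNA or from less of it per cell, and these cannot be told apart. Normalized counts and shares are also relative to the other listed sequences, and absolute amounts were not measured.

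The size of both changes depended on the scaling and on single libraries. For bte-bantam most of this dependence was shared by the whole list. For bte-mir-8 this held for much of the dependence on scaling, but not for all single libraries. The median log2 fold change of all 62 sequences was 0.18 with TMM scaling, 0.13 with that of DESeq2 and -0.09 when listed totals were used instead. The log2 fold change of bte-bantam was -0.86, -0.91 and -1.14 in these 3 fits, and -1.05 in each of them once the median was subtracted. A change of scaling moves all fold changes by a similar amount. Agreement after subtraction was therefore largely built in for these 3 fits. Without late replicate 1 it was -1.48 while the median was -0.51, and without late replicate 4 it was -0.67 while the median was 0.32. Relative to the median, bte-bantam stayed between -1.06 and -0.97 over the 14 alternatives.
bte-mir-8 lay closer to the median, but its difference from it ranged from 0.03 to 0.54, about as widely as its change as fitted (0.03 to 0.47). Its difference from the median was 0.23 in the reported fit, 0.54 without late replicate 1 and 0.03 without late replicate 4. With TMM, DESeq2 and listed totals, bte-mir-8 was at 0.42, 0.43 and 0.20 as fitted, and at 0.23, 0.30 and 0.29 once the median was subtracted. As fitted, its log2 fold change was 0.03 without late replicate 1, where the median was -0.51. Without early replicate 2 it was 0.08 while the median was -0.26, a difference of 0.34.

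**Figure D2:**
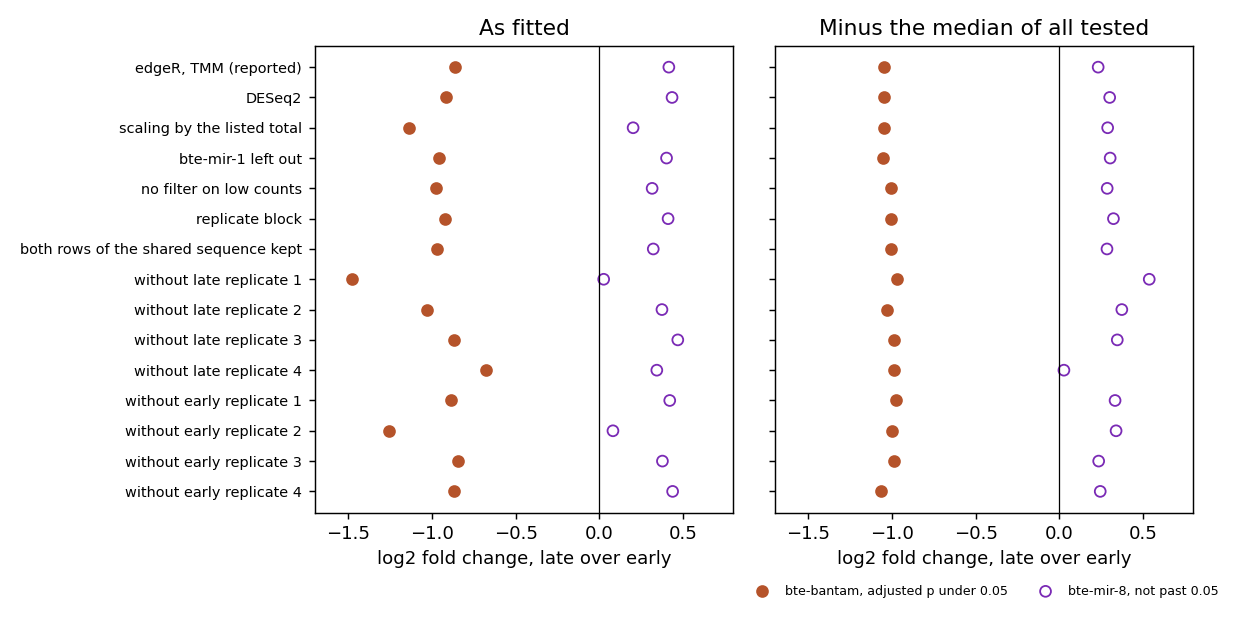
Log2 fold change of late over early larvae for bte-bantam (orange) and bte-mir-8 (purple) in the reported fit and 14 alternatives, as fitted (left) and after subtraction of the median of all tested sequences (right). Filled points had an adjusted p under 0.05 and open points did not. bte-bantam lies between -1.48 and -0.67 on the left and close to -1 throughout on the right, and bte-mir-8 stays above 0 but never passes the threshold.

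The share of a library's listed reads needs no scaling factor, but it also falls when other listed miRNAs rise. The abundant bte-mir-184, for one, averaged 292656 CPM in late and 139269 CPM in early larvae. bte-bantam took 2.96%, 2.83%, 2.36% and 1.77% of the listed reads in late replicates 1 to 4, against 5.52%, 5.84%, 5.81% and 4.61% in early replicates 1 to 4. The widest 95% Clopper-Pearson interval, in late replicate 4, ran from 1.65% to 1.89%. The highest late share was therefore below the lowest early share by far more than the counting error, which is all that such intervals cover. On average bte-bantam held 2.48% ± 0.538 of the listed reads in late larvae and 5.44% ± 0.576 in early larvae (SD, n = 4 each).
bte-mir-8 took 6.14%, 5.76%, 5.27% and 8.89% in late replicates 1 to 4, against 6.12%, 6.11%, 5.35% and 5.08% in early replicates 1 to 4. In shares the stages overlapped, with late replicates 1 to 3 within or close to the early range and late replicate 4 alone above it (interval 8.63% to 9.15%). The mean was 6.52% ± 1.62 in late larvae and 5.66% ± 0.533 in early larvae (SD, n = 4 each). The difference of 0.852 percentage points was 0.0614 without late replicate 4.
Together the pair held 8.99% ± 1.26 of the listed reads in late larvae and 11.1% ± 1.00 in early larvae (SD, n = 4 each).

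The ratio of bte-bantam to bte-mir-8 reads compares the 2 miRNAs inside each library, where depth and scaling factors cancel. Both sequences are 23 nt long, but the ratio counts reads and not molecules. The paper states that library preparation was modified to lower sequencing bias, and what bias remained between these 2 sequences was not measured. A ratio near 1 therefore need not mean equal amounts. The ratio was 0.481, 0.491, 0.447 and 0.199 in late replicates 1 to 4, against 0.901, 0.956, 1.09 and 0.907 in early replicates 1 to 4. In early libraries there was nearly 1 bte-bantam read for each bte-mir-8 read, and in late libraries fewer, with late replicate 4 far below the others. The late intervals ran from 0.184 to 0.215 in replicate 4 and from 0.428 to 0.510 over replicates 1 to 3, and the early intervals from 0.886 to 1.11.
The mean ratio was 0.404 ± 0.138 in late larvae and 0.962 ± 0.0856 in early larvae (SD, n = 4 each). On the log2 scale it was lower by 1.33 in late larvae, or 0.397 times that in early larvae (two-sided exact permutation test over the 70 assignments of the libraries, p = 0.0286). This is the smallest p that 4 against 4 libraries allow. The test treats the libraries as independent, but each colony gave a pair of libraries, and the sample descriptions do not say which libraries share a colony. With libraries paired by replicate number as a block, the difference was the same and p was 0.125 (exact sign-flip test, the smallest that 4 pairs allow), so the call was not kept. Without late replicate 4 the ratio in late larvae was 0.492 times that in early larvae, and the stages remained apart (exact permutation test over 35 assignments, p = 0.0286, again the smallest possible). Read ratios that separate the stages were common in this list: of the 861 pairs among the 42 sequences with reads in every library, 327 (38%) did so.

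**Figure D3:**
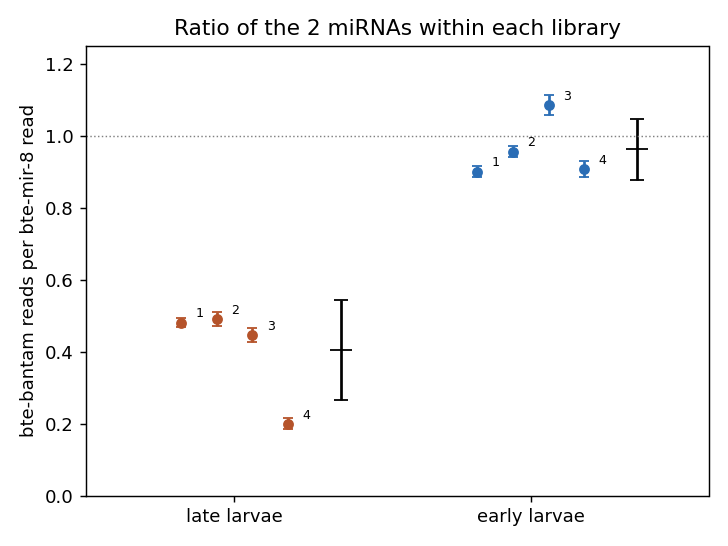
Reads of bte-bantam per read of bte-mir-8 in each late (orange) and early (blue) library, with 95% Clopper-Pearson intervals and replicate numbers. Black bars are the mean and SD of 4 libraries, and the dotted line marks equal reads. Late libraries lie between 0.199 and 0.491 and early libraries between 0.901 and 1.09.

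The same kind of ratio was formed between each of the 2 miRNAs and the 41 other sequences with reads in all 8 libraries. The ratio of bte-bantam to its partner was lower in every late than in every early library for 23 of the 41 partners (56.1%), higher for 2 (4.88%), and overlapped for 16. The background over all pairs, in either direction, is the 38% given above. Among the other 9 of the 10 most abundant sequences, bte-bantam was lower in late larvae against 7. No background was formed for pairs among these abundant sequences alone. The exceptions were bte-mir-9a, where the mean log2 ratio of bte-bantam was -1.14 in late and -0.87 in early larvae, and bte-mir-315, with 0.64 in late and 1.08 in early larvae.
The ratio of bte-mir-8 to its partner was higher in every late library for 11 of the 41 (26.8%), lower for 2 (4.88%), and overlapped for 28 (68.3%). Separate stages were thus no more frequent for bte-mir-8 than over all pairs (38%). Among the 10 most abundant it was higher against bte-bantam, bte-mir-9a and bte-mir-315 and overlapped against the other 6. The mean log2 ratio of bte-mir-8 to bte-mir-375 (0.98 in late and 0.91 in early larvae) was similar at both stages. So was that to bte-mir-750 (1.30 in late and 1.37 in early larvae). Only the means were alike, since the late libraries were scattered. Among these, bte-mir-375 ran from 25548 to 58601 CPM and bte-mir-750 from 18283 to 51104 CPM, against 61649 to 79670 CPM for bte-mir-8.

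In the order of mean normalized counts, bte-bantam was number 8 in late larvae and number 6 in early larvae, and bte-mir-8 number 3 in late larvae and number 5 in early larvae. In late larvae bte-bantam stood between bte-mir-750 (30295 ± 14378 CPM) and bte-mir-315 (17069 ± 3150 CPM, SD, n = 4 each) and overlapped with both. In the same libraries bte-mir-8 followed bte-mir-184, from which it was clearly apart (292656 ± 67990 CPM), and overlapped with the next, bte-mir-276 (62686 ± 17920 CPM, SD, n = 4 each). In early larvae bte-mir-8 and bte-bantam were themselves neighbours and overlapped. They stood apart from bte-mir-276 above (73229 ± 5534 CPM) and bte-mir-375 below (27837 ± 2873 CPM, SD, n = 4 each).

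Replicates of early larvae varied little for these 2 miRNAs, and those of late larvae more. In normalized counts the coefficient of variation of bte-bantam was 29.9% in late and 3.97% in early larvae, and that of bte-mir-8 was 11.0% in late and 5.59% in early larvae. The median over the 62 sequences was 56.0% in late and 21.9% in early larvae. It includes many sequences of low count, where counting error is larger, so it is not matched to these 2 in abundance. No sequence had a lower value than bte-mir-8 in late larvae or than bte-bantam in early larvae, while 14 of the 62 were below bte-bantam in late larvae. In shares of the listed reads this was less marked, where bte-mir-8 varied by 24.9% in late larvae with 13 of the 62 sequences below it, and 8 were below bte-bantam in early larvae. The ratio of the pair varied by 34.2% in late and 8.90% in early larvae. The replicates still differed by more than counting error, since the intervals of the ratio in early replicates 1, 2 and 3 (0.886 to 0.915, 0.941 to 0.972 and 1.06 to 1.11) do not touch.

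The sequences whose normalized counts, as log2(CPM + 1), moved most like bte-bantam over the 8 libraries were bte-mir-993 (Pearson's r 0.95), bte-mir-3730 (0.95) and bte-mir-2944 (0.93). All 3 were lower on average in late larvae, at 1346 ± 476, 24.7 ± 23.8 and 13.3 ± 11.9 CPM, against 3923 ± 863, 89.2 ± 36.3 and 66.4 ± 21.6 CPM in early larvae (SD, n = 4 each). Those most like bte-mir-8 were MC1607 (0.94), MC476 (0.88) and bte-mir-6001 (0.85), all less abundant than bte-mir-8. They changed far more with stage, with log2 fold changes of 4.16, 3.68 and 8.83, against 0.42 for bte-mir-8. Late replicate 4 was the highest for MC1607, at 5950 CPM, as it was for bte-mir-8. These correlations are a description over 8 libraries that share stage, depth and scaling. Apart from bte-mir-993 and MC1607 each had a count of 0 in at least 1 library, where the added 1 CPM sets the value.

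Other miRNAs linked in *Drosophila* to growth, insulin signaling, cell survival or developmental timing were taken from a list of 15 names. Of these, 9 were measured, and mir-100, mir-14, mir-278, mir-34, mir-79 and mir-305 were not analysed here. Of the 9, 2 rose and 3 fell in late larvae (55.6%, against 32.3% of all sequences tested), and 4 did not pass 0.05. The list was chosen with earlier results of these data known, so these shares are a description and no test of growth-linked miRNAs. Its members are also not all separate loci. bte-mir-2-1 and bte-mir-13b, which both fell, lie on the minus strand of Group7.3, at 1115431 to 1115505 and 1115690 to 1115769. Likewise, bte-let-7 and bte-mir-125 lie on the minus strand of Group16.3, at 579826 to 579914 and 579334 to 579408. The median log2 fold change of the 9 measured members was -0.45, against 0.18 over all tested. The higher calls rested on single libraries, since 0 were higher and 5 lower without late replicate 1, and 0 higher and 4 lower without early replicate 2. bte-bantam was on the side of the members that fell.
Of the timing miRNAs, bte-let-7, which in *Drosophila* accompanies the exit from larval life, averaged 4387 ± 1550 CPM in late and 2126 ± 677 CPM in early larvae (SD, n = 4 each). Its log2 fold change was 1.05 (edgeR adjusted p = 0.0181). The value was 0.36 with late replicate 1 left out (adjusted p = 0.415) and was 0.63 without early replicate 2 (adjusted p = 0.288). Its call was also lost without early replicate 1 (adjusted p = 0.0613) or early replicate 3 (adjusted p = 0.0745). Relative to the median of all tested it was 0.86 in the reported fit and stayed between 0.78 and 1.09. bte-mir-125, which lies next to let-7 in insects and acts with it, had a log2 fold change of 0.89 and did not pass 0.05 (edgeR adjusted p = 0.184, 177 reads in all).
The mir-2 family, to which mir-2, mir-13 and mir-11 belong, represses the cell death genes *reaper*, *grim* and *sickle* in *Drosophila*. Its members differed in direction in the reported fit. bte-mir-2-1 fell to 628 ± 249 CPM in late larvae, against 3525 ± 631 CPM in early larvae (SD, n = 4 each, log2 fold change -2.48, edgeR adjusted p = 7.3e-05). bte-mir-13b fell too, with a log2 fold change of -0.99 (edgeR adjusted p = 0.0168), though not past 0.05 without early replicate 1 (adjusted p = 0.0589) or early replicate 3 (adjusted p = 0.0575).
bte-mir-11 had 13916, 5367, 1400 and 1394 CPM in late replicates 1 to 4, against 1345, 1479, 1267 and 1093 CPM in early replicates 1 to 4. The first pair of late libraries was high and the other pair lay within the early range. Its log2 fold change was 2.10 (edgeR adjusted p = 0.0129). It was 0.45 with late replicate 1 left out (adjusted p = 0.350), and it was not past 0.05 without early replicate 2 (adjusted p = 0.0745).
bte-mir-306, whose *Drosophila* counterpart lies in a cluster with miRNAs of the mir-9 family, fell to 5206 ± 1294 CPM in late larvae, against 9708 ± 678 CPM in early larvae (SD, n = 4 each, log2 fold change -0.90, edgeR adjusted p = 0.0129), a change close in size to that of bte-bantam. bte-mir-9a, which limits cell death in the *Drosophila* wing disc, had a log2 fold change of -0.60 and an edgeR adjusted p of 0.0691, which passed 0.05 in 7 of 14 alternatives. bte-mir-7 and bte-mir-277 had log2 fold changes of -0.45 and 0.09 and did not pass 0.05 (edgeR adjusted p = 0.423 and 0.774). Without late replicate 1 bte-mir-7 was at -1.26 (adjusted p = 0.0210).

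**Figure D4:**
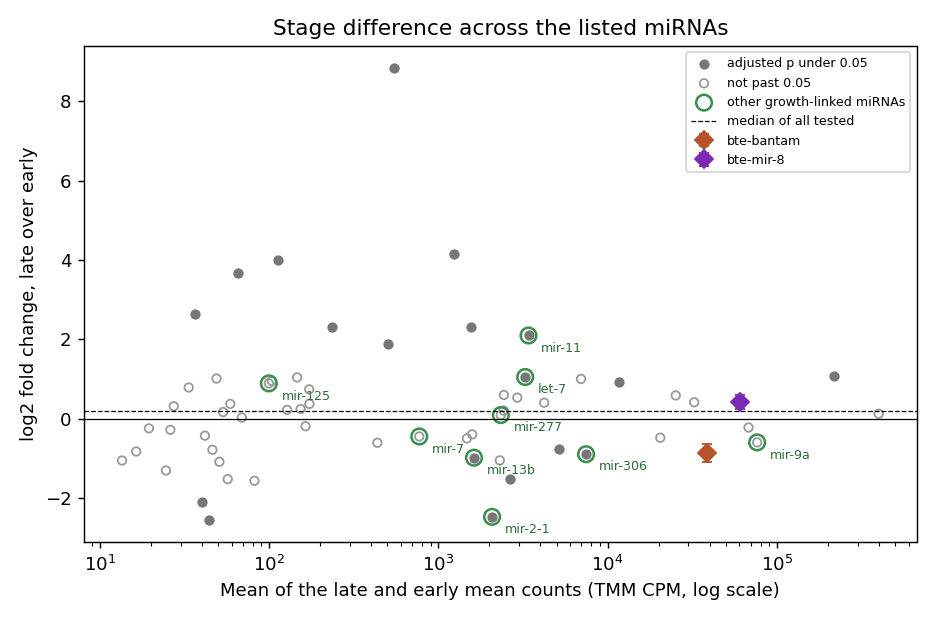
Log2 fold change of late over early larvae (edgeR, TMM) against mean normalized count (log scale) for the 62 sequences tested. Filled grey points had an adjusted p under 0.05, green rings mark the 9 other growth-linked miRNAs, the diamonds with standard errors are bte-bantam at -0.86 and bte-mir-8 at 0.42, and the dashed line is the median of all tested, 0.18.

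Whole bodies hold every tissue, and the mix may shift with age. The muscle miRNAs bte-mir-1 and bte-mir-133 had log2 fold changes of 0.12 and -0.19, and bte-mir-124 of the nervous system -0.43, none past 0.05 (edgeR adjusted p = 0.650, 0.732 and 0.556). bte-mir-133 and bte-mir-124 were at low levels, at most 228 and 65.3 CPM in any library. Over libraries, bte-mir-1 ranged from 309745 to 534761 CPM in late larvae and from 348179 to 464895 CPM in early larvae. It was lowest in late replicate 4, the library with the lowest bte-bantam and the highest bte-mir-8 level. With bte-mir-1 left out of the table the log2 fold change was -0.96 for bte-bantam (edgeR adjusted p = 0.00119) and 0.40 for bte-mir-8 (edgeR adjusted p = 0.143), and the read ratio of the pair does not involve bte-mir-1.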

How the data were processed

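For the table, the authors pooled reads of the 8 libraries, mapped these to the genome (Bter_1.0) and ran miRCat to find precursors, adding others by conservation. The deposited values are raw counts per mature sequence and library, neither normalized nor pooled. The counting program, its mismatches and the handling of end variants are not given in the sources used here and could change every count.

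Columns were assigned to libraries by stage initials and replicate number (0 unmatched). An entry with blank cells in 7 libraries was dropped, and 1 sequence listed at 2 loci entered once, which left 63. Of these, 62 had at least 10 counts in sum and were fitted in edgeR 4.0.16 (R 4.3.3) by TMM and quasi-likelihood, with stage as the only term. Approximate standard errors divide the absolute log2 fold change by the square root of F. Ratios, shares and permutation tests (the share of assignments whose absolute difference of means reached that observed) used SciPy 1.17.1 in Python 3.11.15. Precursors were folded with RNAfold 2.7.2. The tests were checked on simulated data. Every pair of replicates differed by more than sampling noise (chi-square per degree of freedom 19.0 to 229). A count of 0 allows up to 65.7 CPM (3 counts) in late replicate 4 and 5.97 CPM in early replicate 2. Alternatives were DESeq2 1.42.0, other scalings and filters, a replicate block and each library left out. Besides both members, the growth list and the tissue markers, miRNAs were named as the 3 most correlated with each, as neighbours in abundance or, after their values were seen, as partners among the 10 most abundant. Members and lists were chosen with earlier results of these data known.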

Additional observations from a re-analysis of the deposited data

Results flagged for a closer look

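The ratio of bte-bantam to bte-mir-8 reads in late replicate 4, 0.199, was far from the other late libraries (0.447 to 0.491), with a gap of 0.850 of the whole range of the late libraries. This is past the 95% limit of Dixon's test, which chance passes in about 1 of 20 groups, and 28 groups of values were examined. In this library bte-bantam took 1.77% of the listed reads and bte-mir-8 8.89%, the lowest and the highest share of all libraries for each. It also had the fewest listed reads, 45649, but the counting interval of the ratio (0.184 to 0.215) does not reach the other late values.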

How the results depend on the processing

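In all 14 alternative fits bte-bantam kept its direction and stayed past 0.05, and bte-mir-8 kept its direction and stayed short of it. With each library left out, the log2 fold change ranged from -1.48 to -0.67 for bte-bantam and from 0.03 to 0.47 for bte-mir-8, and the log2 ratio from -1.46 to -1.02. The number of miRNAs past 0.05 was 20 and ranged from 15 to 29, and that of other growth-linked miRNAs was 5 and ranged from 3 to 5 (3 without early replicate 1 or early replicate 3, 1 of them higher in late larvae in each case, 0 higher and 5 lower without late replicate 1, and 0 higher and 4 lower without early replicate 2). It was 6, with 2 higher and 4 lower, with DESeq2, with scaling by the listed total, without bte-mir-1, without the filter and with both rows of the shared sequence. The difference in the share of bte-bantam, -2.97 percentage points, ranged from -3.24 to -2.73, and was -5.17 when bte-mir-1 was left out of the denominator, which makes every share larger. That of bte-mir-8 ranged from 0.0614 to 1.27. Replicate numbers are not stated to mark colonies, and deviations of same-numbered libraries did not go together (correlations -0.12 to 0.07). With the replicate number as a block the count of calls was 18, with bte-bantam at -0.92 (edgeR adjusted p = 0.0135) and bte-mir-8 at 0.41 (edgeR adjusted p = 0.191). For the ratio the replicate block gave the same difference, -1.33, with p = 0.125 (exact sign-flip test), the smallest that 4 pairs allow, so this test could not pass 0.05. Late libraries had fewer reads, which limits the low counts of the list more than these 2 abundant miRNAs.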
